A study of Mus musculus with 9 samples.

Results

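The Ifi200 cluster genes are a family of interferon-activated genes that lie side by side on mouse chromosome 1. Of the 55471 genes in the deposited counts, 8 were taken by their symbols, *Ifi203*, *Ifi204*, *Ifi207*, *Ifi208*, *Ifi209*, *Ifi211*, *Ifi213* and *Mndal*. All 8 were found, and all 8 were among the 16260 genes that passed the filter on low counts. RNA was sequenced from bone marrow-derived DCs of wild-type (WT) female C57BL/6 mice aged 8 to 20 weeks, grown with GM-CSF. For 6 h the cells received LPS at 100 ng/mL, received IFN-β at 1000 U/mL, or stayed unstimulated. There were 3 libraries per group, lettered A, B and C in the sample labels. The labels do not say whether a letter marks one mouse, one culture or one preparation, so p-values measure the spread between these libraries, which may be technical.

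Many proteins of this family carry a HIN domain, which binds DNA, a pyrin domain, through which they meet other proteins, or both. Not every member carries both domains, and which domains each gene of the cluster encodes was not tested. The proteins of the family are called PYHIN proteins. The family includes AIM2, which senses DNA in the cytosol and assembles an inflammasome, and human IFI16 and MNDA. Type I interferons act through the receptor IFNAR and transcription factors that bind a DNA motif named the interferon-stimulated response element (ISRE). LPS, a component of the bacterial outer membrane, acts through TLR4, and one arm of that pathway leads to secretion of IFN-β. DCs grown with GM-CSF are a mixed population that also holds macrophage-like cells, and counts were made on whole cultures, in which fewer cells of a type and less RNA per cell cannot be told apart.

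Library totals ran from 33425803 to 43735199 counts. All 7 DC markers examined (*Itgax*, *Itgam*, *Cd74*, *H2-Ab1*, *Flt3*, *Zbtb46* and *Ccr7*) had more than 3 counts in every library, and so did all 4 macrophage markers. Their summed level was 4629 to 7028 CPM for the DC markers and 1483 to 2042 CPM for the macrophage markers over the 9 libraries, where CPM is the gene's share of the library size as scaled by TMM factors, in the usual unit. Markers of T cells, B cells, NK cells, basophils and mast cells, and erythroid cells summed to at most 0.354 CPM per list in any library. Neutrophil markers reached 21.2 CPM, markers of plasmacytoid DCs 2.42 CPM and markers of fibroblasts 4.71 CPM. The summed DC markers were 4629 to 5506 CPM in unstimulated DCs, 6326 to 7028 CPM with LPS and 5167 to 5438 CPM with IFN-β, and their part in the results was not tested.

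The 8 genes span chr1:173566283-173942672 (GRCm38), which is 376390 bases, with 6 genes on the minus strand and 2, *Ifi208* and *Ifi209*, on the plus strand. The other 6 PYHIN genes of the cluster lie between them and to both sides, so that the 14 genes together span 680932 bases. *Ifi211* lies within the annotated span of *Mndal*, on the same strand, without sharing exon bases. *Mndal* and *Ifi203* share 37 exon bases on the same strand, and reads there are counted for neither gene. The genes are also similar in sequence. Of all 100-base stretches of annotated transcript, 56.9% of those of *Ifi211* were found unchanged in the transcripts of another gene, chiefly *Ifi205*. The share was 16.9% for *Ifi209*, 10.7% for *Ifi204*, 6.38% for *Mndal*, 5.92% for *Ifi208*, 3.30% for *Ifi213*, 2.84% for *Ifi203* and 0.790% for *Ifi207*. STAR's gene counts leave out reads that map to several places, so the counts of *Ifi211* in particular come from part of its length and are uncertain as levels.

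The promoters are shown first because most of them hold the same ISRE. RefSeq promoters (GRCm38, 250 bases before each transcript start) were found for 7 of the 8 genes, with 9 starts in all. None was found for *Ifi204*, which was therefore not searched. The ISRE core was searched as GAAANNGAAA on both strands, and 6 of the 7 genes held it, at 7 of the 9 starts. Among all 32851 RefSeq promoters of the same length, 978 held it (2.98%). A second motif, the GAS element (TTCNNNGAA, which reads the same on both strands), was found at none of the 9 starts and in 7.02% of all promoters. In *Ifi203*, *Ifi207*, *Ifi208*, *Ifi213* and the first start of *Mndal* the match was letter for letter the same 10 bases, GAAATCGAAA. Only 13 of the 32851 promoters (0.0396%) held those 10 bases, and 7 of these 13 belong to the family, the other 2 being those of *Ifi206* and *Ifi214*. *Ifi211* held GAAATTGAAA, and *Ifi209* held no ISRE core in this window. The second start of *Mndal* held TTTCTCTTTC, a match on the opposite strand, with its first base 54 bases before that start. A match is a run of letters and not a measured binding site. The next lines give 100 bases upstream of the start for 5 of the genes, 5′ to 3′ on the strand of the gene, with the ISRE core in capitals. *Ifi203* is read from chr1:173942493-173942592 (minus strand), *Ifi207* from chr1:173741810-173741909 (minus strand), *Ifi211* from chr1:173913047-173913146 (minus strand), *Ifi213* from chr1:173599292-173599391 (minus strand) and *Ifi208* from chr1:173673561-173673660 (plus strand).
Ifi203: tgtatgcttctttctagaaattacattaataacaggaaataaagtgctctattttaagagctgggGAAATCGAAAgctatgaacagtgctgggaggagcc
Ifi207: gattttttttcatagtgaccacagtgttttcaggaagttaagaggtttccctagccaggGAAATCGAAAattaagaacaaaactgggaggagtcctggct
Ifi211: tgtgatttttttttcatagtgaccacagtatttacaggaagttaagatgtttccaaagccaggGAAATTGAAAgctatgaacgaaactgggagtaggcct
Ifi213: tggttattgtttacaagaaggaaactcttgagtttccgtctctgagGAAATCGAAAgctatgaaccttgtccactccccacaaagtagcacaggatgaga
Ifi208: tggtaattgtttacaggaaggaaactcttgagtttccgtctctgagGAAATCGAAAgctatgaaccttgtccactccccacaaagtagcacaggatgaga

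In *Ifi203* only the second start had the core, with its first base 35 bases before that start. The distance is 41 bases in *Ifi207*, 37 in *Ifi211*, 36 at the first start of *Mndal*, 58 in *Ifi208* and 73 in *Ifi213*. At both starts of *Mndal* the 100 bases around the match lie wholly in annotated exons, inside the annotated span of the gene. The printed stretches of *Ifi208* and *Ifi213* are identical at 98 of 100 bases. Their levels, described next, were unlike, *Ifi213* being high in all 6 stimulated libraries and *Ifi208* in 4 of the 6.

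All 8 genes rose with LPS and all 8 rose with IFN-β. Summed over the 8 genes, the level was 522 ± 202 CPM (SD, n = 3) in unstimulated DCs, 5100 ± 490 CPM with LPS and 3994 ± 314 CPM with IFN-β. This was 0.0393% to 0.0843% of all counts in unstimulated libraries, 0.387% to 0.438% with LPS and 0.377% to 0.422% with IFN-β. The comparison of LPS with unstimulated DCs called 32.8% of all tested genes higher and 35.4% lower, at an adjusted p-value under 0.05 in the quasi-likelihood test of edgeR, adjusted by the Benjamini-Hochberg method. For IFN-β the shares were 23.6% higher and 23.3% lower. In 7 of the 8 genes every LPS library and every IFN-β library was above every unstimulated library, which held for 34.6% of all tested genes with LPS and for 28.5% with IFN-β. The gene whose groups overlapped was *Ifi208*. The median log2 fold change of the 8 genes was 3.56 with LPS and 3.13 with IFN-β, beside -0.04 and -0.02 over all tested genes. Both comparisons use the same 3 unstimulated libraries.

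**Figure D1:**
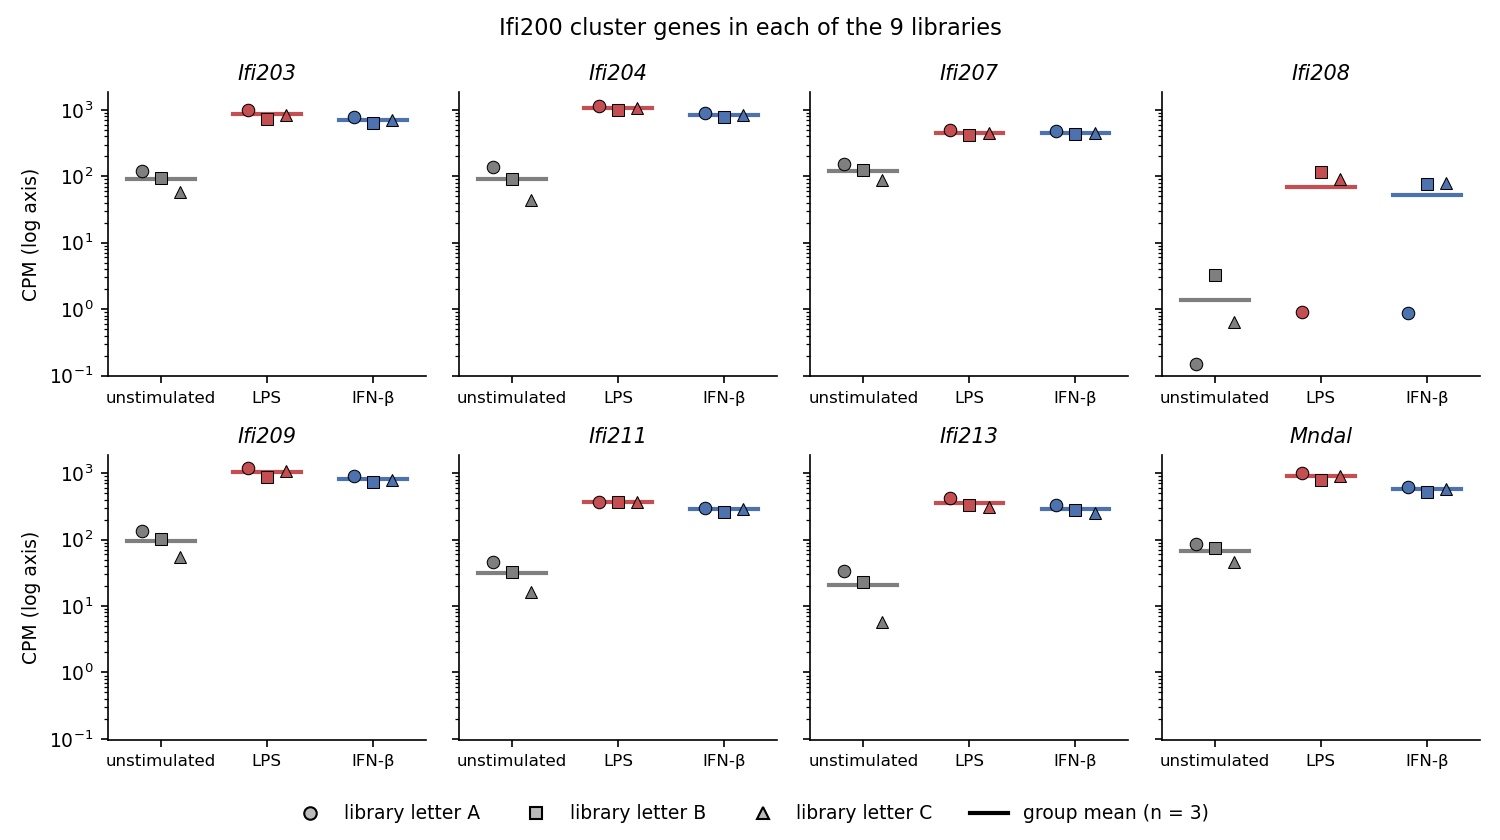
CPM (log axis) of each of the 8 Ifi200 cluster genes in unstimulated, LPS-activated and IFN-β-treated DCs, with 1 point per library, its shape giving the library letter, and a line at the group mean (n = 3). In 7 genes all stimulated libraries lie above all unstimulated ones, and in *Ifi208* the letter A libraries stay at 0.920 CPM with LPS and 0.867 CPM with IFN-β.

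*Ifi204* encodes p204, which has been studied as a DNA sensor upstream of STING and is often set beside human IFI16. Without stimulation it was at 137 CPM in library A, 90.5 CPM in B and 44.2 CPM in C, and it was 1156, 980 and 1055 CPM with LPS. With IFN-β it was 888, 777 and 827 CPM. The unstimulated libraries spread over a wider range in proportion to their level than the stimulated ones, and the groups did not overlap. The log2 fold change was 3.55 ± 0.33 (SE) with LPS, or 11.7-fold (edgeR adjusted p = 3.06e-06), and 3.20 ± 0.32 with IFN-β, or 9.18-fold (edgeR adjusted p = 2.47e-05).

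*Ifi203*, at the far end of the span of the 8 genes, was at 122 CPM in library A, 93.0 CPM in B and 57.3 CPM in C without stimulation. It was at 981, 740 and 843 CPM with LPS and at 791, 642 and 698 CPM with IFN-β. Library A was the highest in each group, and every stimulated library was above every unstimulated one. *Ifi203* rose 9.41-fold with LPS (log2 3.23 ± 0.24 SE, edgeR adjusted p = 6.41e-07) and 7.83-fold with IFN-β (log2 2.97 ± 0.24, edgeR adjusted p = 6.45e-06).

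*Mndal* is named for its likeness to human MNDA, a nuclear protein of myeloid cells. Its unstimulated libraries were at 86.1, 73.6 and 45.3 CPM, its LPS libraries at 988, 792 and 895 CPM and its IFN-β libraries at 618, 515 and 575 CPM. All 3 IFN-β libraries lay between the unstimulated and the LPS libraries. *Mndal* rose 13.1-fold with LPS (log2 3.71 ± 0.21 SE, edgeR adjusted p = 9.81e-08) and 8.33-fold with IFN-β (log2 3.06 ± 0.21, edgeR adjusted p = 2.51e-06).

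In *Ifi209* and *Ifi211*, as in the genes above, unstimulated library C was the lowest of its group. *Ifi209* was at 135, 101 and 54.6 CPM in unstimulated DCs, at 1185, 873 and 1067 CPM with LPS and at 915, 723 and 790 CPM with IFN-β. *Ifi211* was at 45.3, 32.2 and 16.1 CPM in unstimulated DCs, at 367, 368 and 373 CPM with LPS and at 302, 263 and 291 CPM with IFN-β. The LPS libraries of *Ifi211* were nearly equal, with an SD of 2.97 CPM around a mean of 369 CPM. *Ifi209* rose 10.8-fold with LPS (log2 3.43 ± 0.28 SE, edgeR adjusted p = 1.4e-06) and 8.37-fold with IFN-β (log2 3.06 ± 0.28, edgeR adjusted p = 1.36e-05). *Ifi211* rose 11.9-fold with LPS (log2 3.57 ± 0.29 SE, edgeR adjusted p = 1.28e-06) and 9.16-fold with IFN-β (log2 3.19 ± 0.29, edgeR adjusted p = 1.25e-05). Most stretches of *Ifi211* are shared with another gene, as given above, and the share of its expression that was counted is not known.

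Apart from *Ifi208*, *Ifi213* had the lowest mean level per length in unstimulated DCs, with 33.9 CPM in library A, 23.2 CPM in B and 5.71 CPM in C. It reached 417, 332 and 312 CPM with LPS and 327, 274 and 250 CPM with IFN-β. Unstimulated library C held 253 counts, against 1337 in library A. *Ifi213* rose 16.9-fold with LPS (log2 4.08 ± 0.49 SE, edgeR adjusted p = 2.43e-05) and 13.6-fold with IFN-β (log2 3.76 ± 0.48, edgeR adjusted p = 1.26e-04). Within a letter its LPS fold ran from 12.3 to 54.6, the range being set by the low unstimulated library C.

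*Ifi207* had the highest mean level per length of the 8 genes in unstimulated DCs and the smallest fold change of the 8 with both stimuli. Its libraries were at 154, 124 and 87.7 CPM without stimulation, at 503, 418 and 446 CPM with LPS and at 483, 425 and 449 CPM with IFN-β. The LPS and IFN-β libraries overlapped throughout. *Ifi207* rose 3.74-fold with LPS (log2 1.90 ± 0.17 SE, edgeR adjusted p = 2.77e-06) and 3.71-fold with IFN-β (log2 1.89 ± 0.17, edgeR adjusted p = 1.33e-05). Of all counts on the 8 genes, *Ifi207* took 21.6% to 28.1% in unstimulated libraries, 8.78% to 9.06% with LPS and 11.2% to 11.5% with IFN-β. *Mndal*, by contrast, took 12.1% to 14.5% without stimulation, 17.1% to 17.7% with LPS and 13.9% to 14.5% with IFN-β. The 3 ranges of *Ifi207* did not overlap.

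*Ifi208* stood apart from the other 7 genes, because its level depended on the library letter. Unstimulated libraries A, B and C held 6, 147 and 28 of its counts, the LPS libraries 26, 3993 and 2971, and the IFN-β libraries 37, 2930 and 2871. In CPM these were 0.152, 3.30 and 0.632 without stimulation, 0.920, 116 and 91.3 with LPS, and 0.867, 77.8 and 79.3 with IFN-β. Both stimulated letter A libraries were thus below unstimulated library B, while the B and C libraries reached 77.8 to 116 CPM. The mean log2 fold change was 5.64 ± 1.69 (SE) with LPS, or 49.9-fold (edgeR adjusted p = 0.0121), and 5.23 ± 1.68 with IFN-β, or 37.7-fold (edgeR adjusted p = 0.0256). The call for IFN-β was lost in 4 of the 9 fits that left out 1 library (without unstimulated library A or C, or without IFN-β library B or C), with an edgeR adjusted p-value of up to 0.073.

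The rise of *Ifi208* was nevertheless seen within each letter. With LPS the fold within a letter was 6.05 in A (95% counting interval 2.44 to 17.98), 35.2 in B (29.9 to 41.8) and 145 in C (99.8 to 218). With IFN-β it was 5.70 in A (2.39 to 16.5), 23.6 in B (19.97 to 28.0) and 126 in C (86.7 to 189). Each letter has 1 library per condition, so these intervals cover counting error only. With the letter as a block in the model, the log2 fold change of *Ifi208* was 5.67 ± 0.30 (SE) with LPS (edgeR adjusted p = 6.47e-10) and 5.30 ± 0.30 with IFN-β (edgeR adjusted p = 5.77e-09). This model takes 1 fold for all letters, whereas the folds within letters ran from 6.05 to 145 with LPS and from 5.70 to 126 with IFN-β. Its SE and p-values therefore do not speak for each letter on its own. All 8 genes were called higher in that fit too, in which 35.4% of all tested genes were called higher with LPS and 27.9% with IFN-β. In a fit without the letter A libraries, which was added after the values had been seen, the log2 fold change was 5.72 ± 0.43 with LPS (edgeR adjusted p = 5.66e-06) and 5.31 ± 0.43 with IFN-β (edgeR adjusted p = 3.57e-05).

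The letters themselves were compared in the blocked fit, also after the values had been seen. In this fit, which takes the same letter difference in all 3 conditions, *Ifi208* was higher in letters B and C than in letter A. The differences were 6.68 log2 units in B and 6.32 in C (edgeR adjusted p = 2.2e-07). Since this comparison was chosen for *Ifi208*, its p-value is a description. The letters were called different for 13.3% of all tested genes. The other 7 members were not called (edgeR adjusted p from 0.076 to 0.324), and in each of them letters B and C were below A, with log2 differences of -0.24 to -0.91. *Ifi208* was thus the only member higher in B and C, and its difference was opposite in sign to those of the nearest members on both sides, *Ifi209* and *Ifi207*. Over B and C, its level exceeded that of letter A by 4.16-fold to 21.7-fold in unstimulated DCs, by 99.2-fold and 126-fold with LPS, and by 89.8-fold and 91.5-fold with IFN-β.

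**Figure D2:**
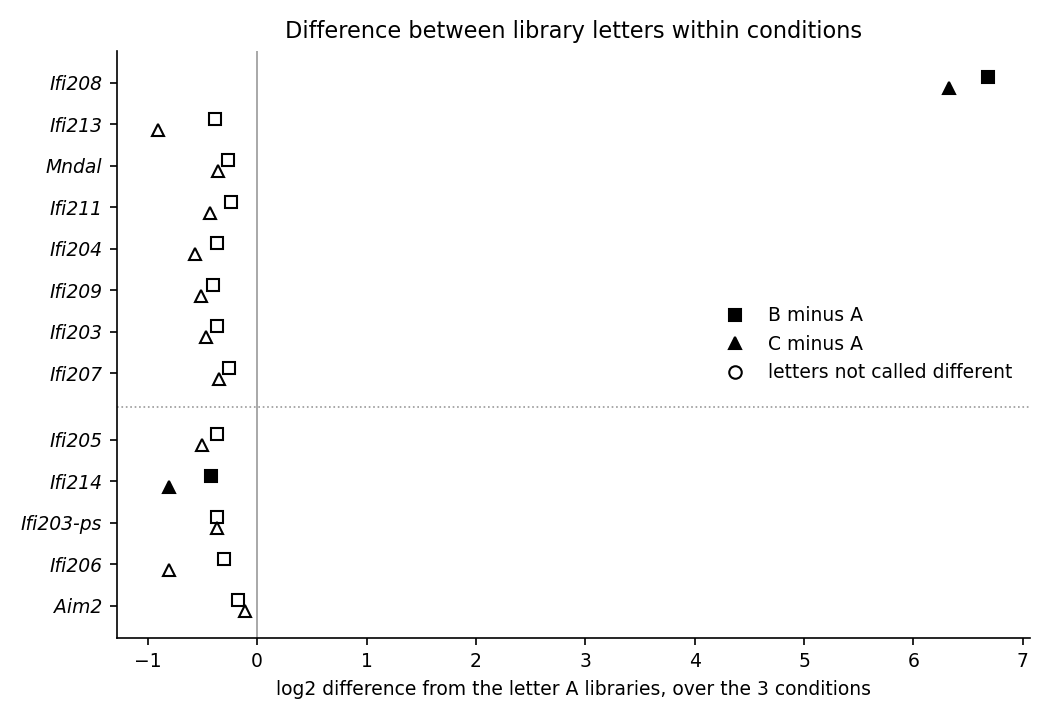
Log2 difference of letter B (squares) and letter C (triangles) from letter A in the blocked fit, which takes the same difference in all 3 conditions. Shown are the 8 Ifi200 cluster genes (above the dotted line) and the 5 other tested genes of the family. Filled symbols mark genes with an adjusted p-value under 0.05 for any difference between letters. *Ifi208* lies at 6.68 and 6.32, and all other genes lie below 0.

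In 3 of the 16260 tested genes, letters B and C both differed from A by more than 5 log2 units. *Ifi208* and the histone gene *H4c17* were higher, and *Gm42031* was lower. *H4c17* had 1, 242 and 227 counts in letters A, B and C without stimulation, 2, 104 and 109 with LPS and 3, 162 and 185 with IFN-β. *Gm42031* had 564, 131 and 730 counts in the 3 letter A libraries and 0 in all 6 others. These 2 genes were named after their values had been seen, and what the letters stand for was not tested.

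IFN-β and LPS were then compared directly, which asks whether a gene responded more to one stimulus than to the other. In this comparison 25.8% of all tested genes were called higher with IFN-β and 23.3% lower. Of the 8 genes 1, *Mndal*, was called, with a level 1.57-fold lower with IFN-β than with LPS (log2 -0.65 ± 0.19 SE, edgeR adjusted p = 0.0169). The other 7 genes had log2 differences of -0.41 to -0.01, with edgeR adjusted p-values from 0.267 to 0.963. All 8 estimates were below 0 in the fit as designed, but that of *Ifi207* changed sign in 7 of 17 alternatives (of scaling, filter and libraries used) and that of *Ifi208* in 2 of the fits that left out 1 library, and *Ifi203* was at 0.01 with scaling by library size only, which moves the median of all tested genes by 0.27. The median of the 8 was -0.36, beside 0.02 over all tested genes. The LPS and IFN-β libraries did not overlap for *Ifi204*, *Ifi211* and *Mndal*. The share of all tested genes without such overlap was not counted for this comparison, so this only describes these genes. The differences of *Ifi207* (-0.01 ± 0.17), *Ifi208* (-0.41 ± 1.27) and *Ifi213* (-0.32 ± 0.43) were smaller than their SE. The call of *Mndal* was lost without LPS library A (edgeR adjusted p = 0.052) and without IFN-β library B (edgeR adjusted p = 0.0655). It was also lost with scaling by library size only, where the log2 difference was -0.37 (edgeR adjusted p = 0.0816). With the letter as a block *Mndal* was called at -0.65 ± 0.13 (edgeR adjusted p = 9.92e-04) and again was the only one of the 8, while 30.3% of all tested genes were called higher and 27.6% lower.

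**Figure D3:**
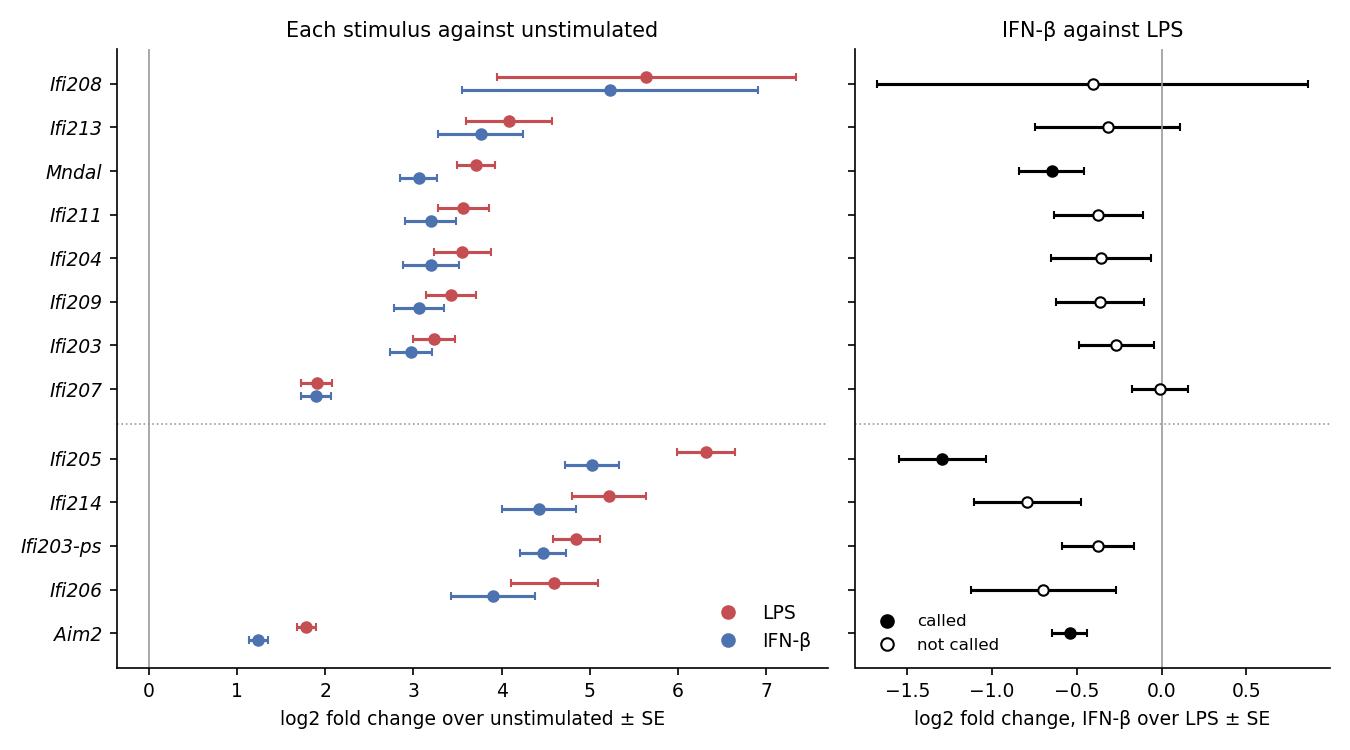
Log2 fold change ± SE from edgeR of the 8 Ifi200 cluster genes (above the dotted line) and the 5 other tested genes of the family (below it). The left panel shows LPS (red) and IFN-β (blue) against unstimulated DCs, and the right panel shows IFN-β against LPS, with filled points for genes with an adjusted p-value under 0.05. All points of the left panel lie above 0, from 1.24 to 6.32, and all points of the right panel lie below 0, from -1.29 to -0.01, with *Mndal*, *Ifi205* and *Aim2* filled.

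Levels were compared between genes per length, as CPM per kb of exon that no other gene shares. In unstimulated DCs the order was *Ifi207* (35.6 ± 9.78 CPM per kb, SD, n = 3), *Ifi209* (27.3 ± 11.4), *Ifi204* (25.4 ± 13.02), *Mndal* (19.7 ± 6.03), *Ifi211* (17.5 ± 8.20), *Ifi203* (13.6 ± 4.87), *Ifi213* (3.06 ± 2.08) and *Ifi208* (0.259 ± 0.323). Neighbors among the first 6 overlapped in their libraries, whereas every library of *Ifi203* was above every library of *Ifi213*, and those of *Ifi213* above those of *Ifi208*. With LPS the order was *Ifi204* (299 ± 24.7 CPM per kb), *Ifi209* (294 ± 44.5), *Mndal* (257 ± 28.3), *Ifi211* (207 ± 1.67), *Ifi207* (133 ± 12.6), *Ifi203* (128 ± 18.1), *Ifi213* (51.7 ± 8.18) and *Ifi208* (13.2 ± 11.5). *Ifi207* thus fell from the first place to the fifth, and only *Ifi204*, *Ifi209* and *Mndal*, and *Ifi207* and *Ifi203*, overlapped with their neighbors. With IFN-β the order of the 8 was the same as with LPS, from *Ifi204* (233 ± 15.6 CPM per kb) to *Ifi208* (10.0 ± 8.53), and the neighbors that overlapped were *Ifi204* and *Ifi209*, and *Mndal* (164 ± 14.8) and *Ifi211* (160 ± 11.1). These levels do not correct for stretches shared between genes, which touch *Ifi211* most. The length is also that of all annotated exons together, whichever transcript was made. It was 6669 bases for *Ifi203* and 3561 for *Ifi204*, whose unstimulated means were 90.8 and 90.6 CPM. The order of the genes therefore depends on the annotated lengths.

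The unstimulated libraries differed among themselves in a way most of the members shared. Unstimulated library C was the lowest of its group for 7 of the 8 genes, with a median log2 deviation from the group mean of -0.66, while library A was at 0.53 and library B at 0.15. In the LPS and IFN-β groups the medians stayed between -0.12 and 0.15. Over all 16260 tested genes, unstimulated library C was the lowest of its group in 6058, and its median deviation was -0.00182. Of 20 reference interferon-stimulated genes, a list that holds none of the 8, 19 were also lowest in that library, with a median of -0.63. The folds within letters therefore ran higher in C than in A, for example from 8.44 to 23.9 for *Ifi204* with LPS. This order of the unstimulated libraries also enters every SE of a fold change against unstimulated DCs.

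The 8 profiles were nearly parallel apart from *Ifi208*. Over the 9 libraries, Pearson's r between the log2(CPM + 0.5) values of any 2 of the other 7 genes was at least 0.981, and between *Ifi208* and each of them it was 0.536 to 0.589. These correlations are descriptions, since the points share 3 conditions and the same libraries. Outside the family, the 5 tested genes most like the mean profile of the 8 were *Sp100* (r = 0.997), *Phf11d* (0.996), *Oas1b* (0.996), *Rnf213* (0.996) and *Phf11a* (0.995). *Sp100*, a component of nuclear bodies, was at 195, 173 and 116 CPM without stimulation, at 752, 727 and 759 CPM with LPS and at 622, 580 and 649 CPM with IFN-β. The gene most like *Ifi204* was *Ifit3* (r = 0.999), and the one most like *Mndal* was *Ddx60* (r = 0.999). For *Ifi208* the closest was *Gm18752* (r = 0.961), a pseudogene at chr1:173701385-173706407 (GRCm38), next to the end of *Ifi208* at base 173698395. It had 0, 1 and 1 counts without stimulation, 4, 26 and 35 with LPS and 2, 38 and 39 with IFN-β, so that it too was lower in the stimulated letter A libraries. The next genes were *Cx3cl1* (r = 0.946), which encodes the chemokine fractalkine, and *Nrg4* (r = 0.942).

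Around the 8 genes, the other members of the family also rose. Of 6 other PYHIN genes 5 were tested, and all 5 were called higher with LPS and with IFN-β, with medians of 4.85 and 4.43 on the log2 scale. *Aim2* had 1567, 1919 and 1875 counts in unstimulated DCs, 4806, 4407 and 4323 with LPS and 4452, 3410 and 3659 with IFN-β. It rose least, 3.45-fold with LPS and 2.36-fold with IFN-β. *Ifi205* went from 443, 430 and 192 counts to 22499, 19860 and 20678 with LPS and 13350, 9067 and 9646 with IFN-β. It rose most, 79.9-fold with LPS and 32.6-fold with IFN-β. *Ifi206* had 1828, 1485 and 354 counts without stimulation, 22270, 23635 and 20948 with LPS and 20272, 15755 and 14993 with IFN-β. *Ifi214* had 60, 35 and 9 counts without stimulation, 1048, 1007 and 830 with LPS and 962, 658 and 466 with IFN-β. As in most members, unstimulated library C was the lowest of its group in both. The pseudogene *Ifi203-ps* had 131, 99 and 53 counts without stimulation, 2129, 2008 and 1908 with LPS and 2301, 1662 and 1817 with IFN-β. *Ifi206*, *Ifi214* and *Ifi203-ps* rose by 4.598, 5.22 and 4.85 log2 units with LPS and by 3.90, 4.43 and 4.47 with IFN-β. *Aim2* (log2 -0.54 ± 0.10, edgeR adjusted p = 0.00144) and *Ifi205* (log2 -1.29 ± 0.26, edgeR adjusted p = 0.00182) were called lower with IFN-β than with LPS. *Ifi206* (log2 -0.70 ± 0.43), *Ifi214* (log2 -0.79 ± 0.32) and *Ifi203-ps* (log2 -0.38 ± 0.21) were not called, and with the letter as a block *Ifi214* (edgeR adjusted p = 1.88e-04) and *Ifi203-ps* (edgeR adjusted p = 0.0116) were. *Ifi202b*, whose product lacks a pyrin domain and has been studied as an antagonist of AIM2, was too low to be tested, with 0 counts in the 3 unstimulated libraries, 6, 4 and 10 with LPS and 2, 0 and 0 with IFN-β. Such a count of 0 allows up to 3 counts, or 0.0760 CPM in unstimulated library A.

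**Figure D4:**
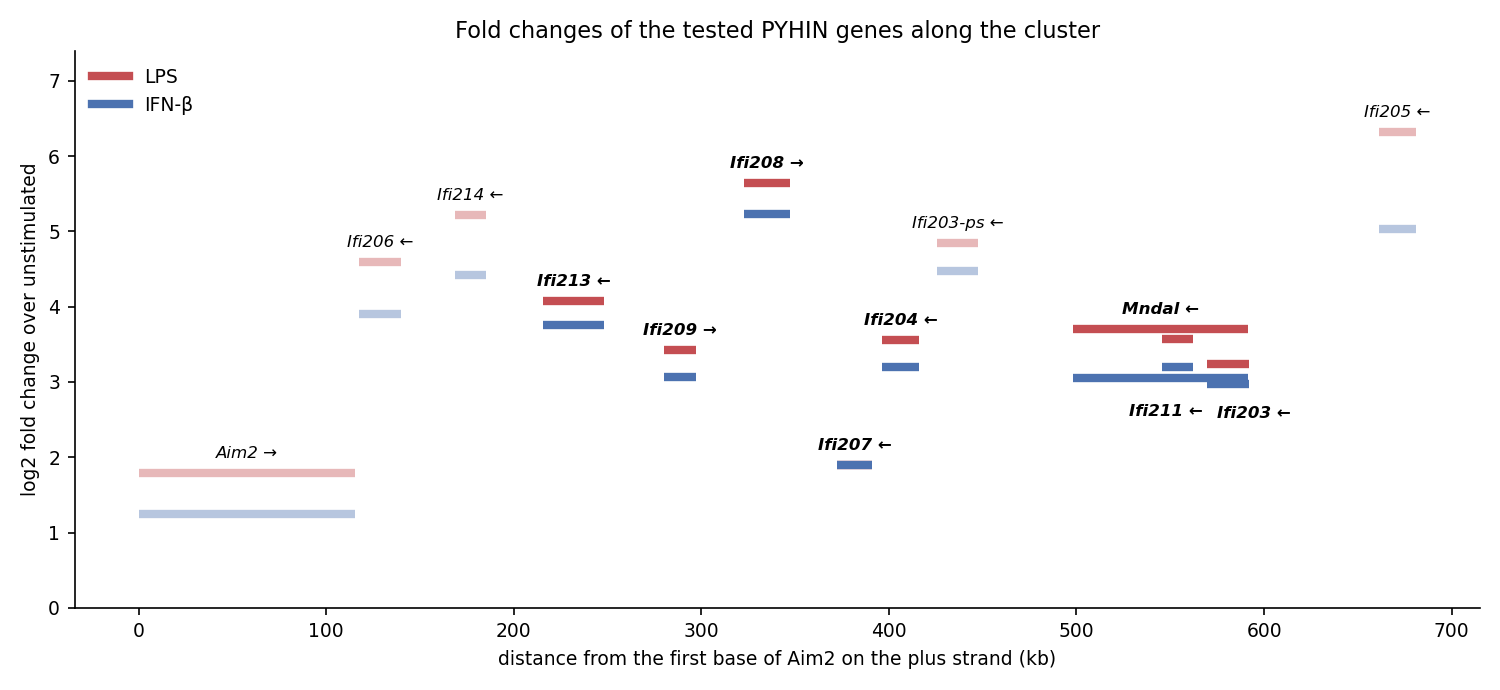
Log2 fold change with LPS (red) and IFN-β (blue) of the 13 tested genes of the family, drawn over the span of each gene as distance in kb from the first base of *Aim2*. Bold names and full colors mark the 8 Ifi200 cluster genes, arrows give the strand, and the LPS bar of *Ifi207* is hidden by its IFN-β bar. Fold changes with LPS differ between drawn neighbors, for example 1.90 ± 0.17 (SE) in *Ifi207* and 3.55 ± 0.33 in *Ifi204*. The neighbor of *Ifi207* on the other side, *Ifi208*, is at 5.64 ± 1.69, and its level depended on the library letter.

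Within the span of the family and 500 kb to either side lie 46 genes not listed as members of it. Of these, 28 had 0 counts in all 9 libraries and 7 were tested. Of these 7, 6 were called higher with each stimulus and none lower. The 6 include the pseudogenes *Gm18752*, *Gm7871* and *Gm18445*, which lie between genes of the cluster and are not unrelated neighbors by position. *Gm18445* was also the gene that held most of the shared 100-base stretches of *Ifi207*. Whether these pseudogenes derive from the family was not tested. All 7 were low, with 78 to 711 counts over all 9 libraries together. The members had between 13009 counts (*Ifi208*) and 209185 counts (*Ifi204*) over the same libraries.

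Related pathways were described by lists. Of 18 interferon signaling genes 17 were called higher and 1 lower with each stimulus, with a median log2 fold change of 1.83 with LPS and 0.75 with IFN-β. *Ifnb1*, which encodes IFN-β itself, had 0, 0 and 1 counts in unstimulated DCs, 137, 117 and 93 with LPS and 9, 5 and 9 with IFN-β. *Irf9*, which encodes a transcription factor that binds the ISRE, rose 2.30-fold with LPS and 1.67-fold with IFN-β. The 1 gene that fell was *Ifngr1*, a chain of the receptor for type II interferon, with log2 fold changes of -1.48 with LPS and -0.66 with IFN-β. All 20 reference interferon-stimulated genes were called higher with both stimuli, with medians of 4.34 and 3.64, which are above the medians of the 8 members. In this list *Cxcl10* rose most, by 9.62 log2 units with LPS and by 7.03 with IFN-β, and *Oas1a* rose least with LPS, by 1.99.

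In the reference list 13 of 20 genes were called lower with IFN-β than with LPS and none higher, with a median of -0.83, beside 1 of 8 and -0.36 in the cluster. The difference between the lists was not tested. Of 27 tested genes of cytosolic DNA sensing and inflammasomes, 14 were called higher and 10 lower with LPS, and 14 higher and 9 lower with IFN-β, or 16 higher and 9 lower with the letter as a block. *Cgas*, which makes the messenger that STING binds, rose 2.30-fold with LPS and 2.26-fold with IFN-β. *Sting1* fell by 0.92 log2 units with LPS and was at 0.21 ± 0.10 with IFN-β (edgeR adjusted p = 0.124), where the blocked fit called it higher (log2 0.20 ± 0.06, edgeR adjusted p = 0.0163). The largest rise of the list was that of *Il1b* with LPS (log2 7.14), and *Irf7* rose most with IFN-β (log2 3.12). *Xrcc6*, which encodes a subunit of the Ku complex that joins broken DNA ends, had the lowest log2 fold change of the list with both, -2.75 with LPS and -1.54 with IFN-β.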

How the data were processed

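RNA was sequenced from 9 libraries of bone marrow-derived DCs, 3 unstimulated, 3 with LPS and 3 with IFN-β, after depletion of ribosomal RNA. The authors trimmed adapters with Trim Galore (0.6.0 in the submitters' processing notes), mapped paired reads to mm10 (GRCm38) with STAR (2.7.8a in those notes, another version in the methods) and deposited the raw counts per gene from STAR's gene counting on a GENCODE release, which keeps reads that map to 1 place and overlap 1 gene. The strand setting is not given in the sources used here. Groups and letters came from the sample labels.

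The counts were tested as deposited with edgeR 4.0.16 (limma 3.58.1, R 4.3.3). TMM factors and quasi-likelihood F-tests follow the methods, which name no filter, and filterByExpr was chosen here. The fit had 1 term per condition over all 9 libraries, with Benjamini-Hochberg adjustment over the 16260 of 55471 genes that passed. An adjusted p-value under 0.05 was a call. The SE is the absolute log2 fold change divided by the square root of F. Single-library log2 values used a pseudocount of 0.5 CPM. Intervals and the floor of 3 counts cover counting error only, since the reads carry no molecular identifiers and may repeat a molecule. The comparisons were LPS and IFN-β against unstimulated and IFN-β against LPS.

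The deviations of same-letter libraries from their group means were correlated in all 9 pairs (r from 0.134 to 0.546). Those of different letters were at -0.480 to 0.062, but deviations within a group sum to 0, so these values are not separate evidence. The letters may thus pair the libraries, although no label says so. The main fit ignored such a pairing, and the letters were used as a block only in an alternative. Library pairs within a group differed by more than sampling noise.

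Alternatives were DESeq2 1.42.0, scaling by library size without further factors, scaling by upper quartiles, all genes without a filter, at least 10 counts in every library, the 2 compared groups alone, the letters as a block, each library left out, log2 fold changes of 1 or more in size, and an adjusted p-value under 0.01. Leaving out the letter A libraries and testing the letters were added after the data were seen. Gene positions are from GENCODE M21 (GRCm38), in which 55230 of the 55471 identifiers had an entry, and promoters from RefSeq. All 8 genes were named with every library value, the other family genes with their counts, and from each list the genes with the largest rise and fall, with others of the lists where they bear on the pathway. The genes most like each member were those with the highest Pearson's r over the 9 libraries. The members and lists were chosen with earlier results of these data known. The model was tested on simulated data. Some genes are not reported here.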

Additional observations from a re-analysis of the deposited data

How the results depend on the processing

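All 8 genes rose with both stimuli in every alternative, except that *Ifi208* gives no value where at least 10 counts in every library are asked that it was not called with either stimulus at an adjusted p-value under 0.01, and that its IFN-β call was lost in the 4 leave-one-out fits named above. For IFN-β against LPS, where 1 of the 8 genes was called (*Mndal*), 0 were called with library size only, when log2 fold changes of 1 or more in size were asked and with an adjusted p-value under 0.01, 3 with only the 2 compared groups (*Ifi204* and *Ifi211* besides *Mndal*), and 0 to 2 when 1 library was left out. In this comparison the log2 difference of *Ifi203* was 0.0120 with library size only. That of *Ifi207* was 0.267 with library size only, 0.00438 with upper-quartile factors, 0.0101 without the filter, 0.0116 with only the 2 compared groups, 0.00857 without the letter A libraries and -0.0745 to 0.0574 when 1 library was left out. That of *Ifi208* was -0.992 to 0.175 when 1 library was left out. The cause was not tested. Over all genes, asking for log2 fold changes of 1 or more in size left 5429 calls of 11084 with LPS, 2052 of 7631 with IFN-β and 2834 of 7989 between the stimuli. The letters as a block changed no call of the 8 genes. It called 4 in place of 2 of the 5 other tested family genes lower with IFN-β than with LPS, and *Sting1* and *Il1b* higher with IFN-β. Low counts limit *Ifi208* in letter A and *Ifi202b*, with at most 37 and 10 counts. Shared sequence limits *Ifi211*, and the meaning of the letters limits *Ifi208*.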
